A study of Solanum lycopersicum with 27 samples.

Results

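Shoots of tomato seedlings (Solanum lycopersicum, cultivar M82) that had spent 30 min at 4°C were compared with shoots taken at 24°C just before the treatment (T0). The comparison rests on 6 of the 27 RNA-seq libraries of the study: replicates 1 to 3 at 4°C and T0 replicates 4 to 6, which are the T0 libraries that shared a sequencing batch, batch 2, with the 30 min samples. The seedlings were untransformed, 18 days old and grown in hydroponic culture, and each library was made from pooled seedlings. The treatment began in the morning light period, when the seedlings of the 4°C and 24°C groups were moved to fresh hydroponic containers. T0 shoots were taken just before the treatment. Differences between 4°C and T0 therefore join the cold, the move and 30 min of the morning, which cannot be told apart in that contrast. Shoots of seedlings that changed containers but stayed at 24°C for 30 min (3 libraries, same batch), the other T0 libraries (replicates 1 to 3, batch 1) and shoots held for 3 h at 4°C (3 libraries, batch 1) are given only where they show how the 30 min chilled shoots differ. The methods call the replicates biological but the labels do not say whether they came from separate cultures, so the p-values measure only a spread between libraries. In the limma fit that spread was pooled within groups over all 18 shoot libraries, not over the 6 compared libraries alone. The T0 libraries of the 2 batches resembled each other in order: deviations from the group mean over all tested genes correlated at 0.27 for replicates 1 and 4, 0.22 for 2 and 5 and 0.47 for 3 and 6, and each library of batch 2 correlated best with that partner. Whether such libraries share seedlings or RNA is not stated in the sources used here.

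A leaf cell carries genomes in the nucleus, the plastids and the mitochondria, and RNA extracted from a shoot holds transcripts of all of them. Plastid genes encode the core of the photosystems, the cytochrome b6f complex, the ATP synthase and the NDH complex, the large subunit of Rubisco, and the plastid's own RNA polymerase, ribosomal proteins, rRNAs and tRNAs. They are transcribed in long clusters that are cut and spliced afterwards. In the nucleus, the best-known early cold response of plants runs through calcium signals, protein kinases and the CBF transcription factors. Names of nuclear genes below are mostly those of the best Arabidopsis match, and the roles given are those known in Arabidopsis.

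Every library had been scaled by the authors to nearly the same total of normalized counts, so the files hold no depth. Of the 20545 genes in the shoot table, 20535 reached 10 normalized counts in 3 or more of the 18 shoot libraries and were tested (limma on log2 of the value plus 1, Benjamini-Hochberg adjustment over all tested genes, called at an adjusted p under 0.01). The leaf markers CP12-2, MYB60 and FMA were present in all 6 libraries, at 1331 to 1804, 108 to 177 and 128 to 219.9 normalized counts. Of the root markers, MYB36 stood at 14.02 to 52.6 and FRO2 at 122 to 339. CSLD3, a cellulose synthase-like gene of root hairs, stood at 2357 to 6378, above the leaf markers given. Whether its reads came from shoot cells or from root tissue in the samples was not tested. The reference gene EF1a lay between 38329 and 41761 normalized counts in the 6 libraries, with a log2 difference of 0.03 ± 0.06 (SE).

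After 30 min at 4°C, 1457 of 20535 genes were called, or 7.1%. Of these, 396 were higher (1.93% of all tested) and 1061 were lower (5.17%). The genomes differed: 117 of the 136 plastid genes were higher, whereas 279 of 20368 nuclear genes were higher and 1046 lower, with median log2 differences of 0.50 and -0.51 among the called nuclear genes. Only 29 nuclear genes rose and 129 fell by 2-fold or more. Of the 31 mitochondrial genes, 13 were lower and 0 higher by limma, with 1 higher at an unadjusted p under 0.05. The split of higher and lower calls followed the scaling: 27.2% of called genes were higher on the deposited values and 45.6% after rescaling each library to the median ratio over nuclear genes, while the plastid count stayed at 117. The nuclear counts also moved with single libraries. They were 99 higher and 578 lower without chilled replicate 1, 133 and 668 without T0 replicate 4, 174 and 570 without T0 replicate 6, and 620 and 993 without chilled replicate 2.

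**Figure D1:**
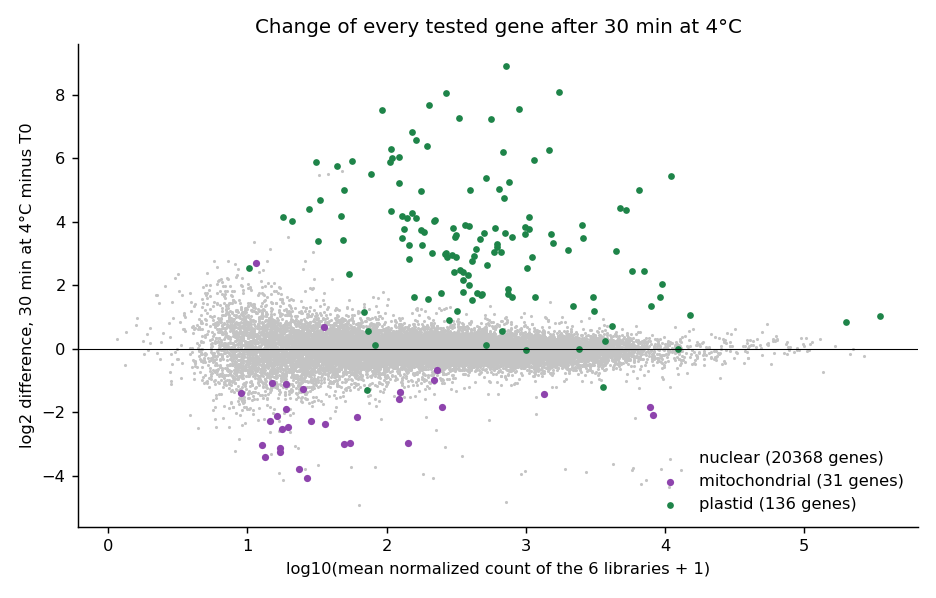
Log2 difference of 30 min at 4°C minus T0 (3 libraries each) against the log10 of the mean normalized count plus 1, for all 20535 tested genes. Most plastid genes (green) sit above the cloud of nuclear genes (grey) and most of the 31 mitochondrial genes (purple) below it; a small nuclear group lies below -3.

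The plastid share of all normalized counts was 2.05, 2.19 and 2.32% in the T0 libraries. After 30 min at 4°C it was 4.49, 6.29 and 4.12%, so every chilled library lay above every T0 library, by a factor of 2.28 between the means (exact two-sided permutation test, p = 0.1, the smallest that 3 against 3 allows). Shoots kept at 24°C lay on the other side of T0 of batch 2, at 0.222 to 0.643%, and 3 h at 4°C gave 6.73 to 6.77%. The T0 libraries of batch 1 held 0.394 to 0.718%, which overlapped the range at 24°C and was less than in those of batch 2. The difference between chilled shoots and T0 was thus 4.46 percentage points against batch 1 and 2.78 against batch 2. In bulk shoots, more plastid RNA per cell and a larger share of cells rich in plastids cannot be told apart. Plastid transcripts mostly lack the stable poly(A) tail of nuclear mRNA, and the sources used here do not state whether the libraries, made with a TruSeq RNA kit, selected for it, so the shares are those of the sequenced RNA, and more plastid RNA and more of it being captured cannot be told apart either. Most of the plastid signal came from rRNA genes, with 1.92 ± 0.135% of all normalized counts at T0 and 3.76 ± 0.983% in the cold (SD, n = 3 each). Protein-coding plastid genes went from 0.255 ± 0.00986% to 0.861 ± 0.131%, a factor of 3.38, and plastid tRNA genes from 0.0126 ± 0.000440% to 0.340 ± 0.0446%, a factor of 27.1 (SD, n = 3).

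**Figure D2:**
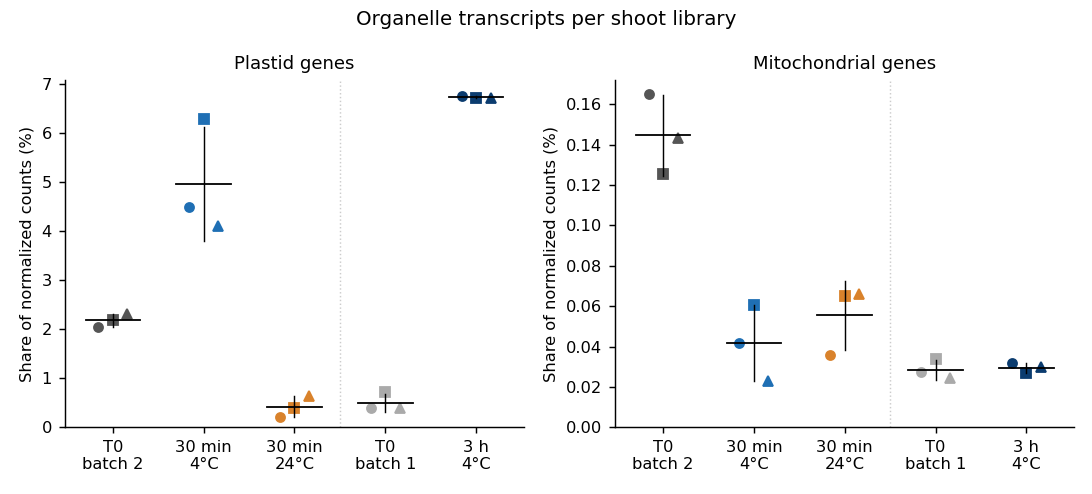
Share of all normalized counts that fell on plastid genes (left) and mitochondrial genes (right), in percent, for each shoot library (symbols are replicates), with the group mean (line) and SD (bar, n = 3); the dotted line separates batch 2 (left) from batch 1. The plastid share rose from 2.05 to 2.32% at T0 to 4.12 to 6.29% after 30 min at 4°C, and the mitochondrial share fell from 0.125 to 0.165% to 0.0231 to 0.0608%.

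Among genes of the photosynthetic machinery, 13 of 15 photosystem II genes, 4 of 5 photosystem I genes, 6 of 6 cytochrome b6f genes, 4 of 6 ATP synthase genes, 10 of 12 NDH genes and rbcL were called higher. Their median log2 differences were 2.43, 2.04, 3.01, 1.40, 2.69 and 1.63. The photosystem II reaction centre gene psbD stood at 881, 974 and 956 normalized counts at T0 and at 7090.4, 10133 and 6758 at 4°C (log2 difference 3.07 ± 0.27 SE, limma adjusted p = 5.34e-07). Its 3 chilled values were all several times the T0 values, and at 24°C the gene held 111.5, 216 and 345. The antenna gene psbB had 1802, 2197 and 1449 at T0 and 8752, 11956 and 8809.7 in the cold, and petB, a cytochrome b6f subunit, had 470, 351 and 408 and then 3311, 4313 and 3137. The groups did not overlap in either gene, and over all tested genes 8.11% had every chilled library above every T0 library. For rbcL, the large subunit of the carbon-fixing enzyme Rubisco, 3926, 4470.2 and 5135 at T0 became 13371, 16247 and 12216 (1.63 ± 0.26, limma adjusted p = 0.000355). The D1 gene psbA, whose protein is replaced as light damages it, had 9289, 10652 and 8934 at T0 and 18747, 25672 and 16983 at 4°C. Its groups did not overlap either, but its difference of 1.07 ± 0.32 was not called (limma adjusted p = 0.029).

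Many genes for the plastid's own gene expression machinery were higher as well. All 4 subunits of the plastid-encoded RNA polymerase were higher, by 3.05 to 3.79 on the log2 scale, and rpoB went from 137, 150.0 and 132 normalized counts to 1761, 2246 and 1844. Those are the smallest and largest changes among the 4, for rpoC2 and rpoB. Genes for ribosomal proteins were higher in 9 of 10 of the large subunit and 11 of 15 of the small subunit. The maturase gene matK, whose protein helps to splice plastid introns, had 435, 301 and 462 at T0 and 11924, 13703 and 12307 at 4°C (5.00 ± 0.17, limma adjusted p = 2.16e-12). At 24°C it had 113, 188 and 150.3, and at 3 h in the cold its change against T0 of its own batch differed from that at 30 min by only 0.13 ± 0.24 (limma adjusted p = 0.781).

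Plastid tRNA genes gave the largest differences: 39 of 41 entries were higher, with a median of 5.44 against 2.89 over the 85 protein-coding entries. The tyrosine tRNA gene trnY-GUA was listed at 4.89, 3.47 and 0 at T0 and at 1489.8, 1556 and 1266 after 30 min in the cold (8.91 ± 0.64), and at 3.88, 4.14 and 0 at 24°C. One entry of the isoleucine tRNA gene trnI-GAU was well covered before the treatment too, with 471, 523 and 480.1 at T0 and 18921, 25657 and 19998 at 4°C (5.44 ± 0.23, limma adjusted p = 4.87e-11). One copy of trnN-GUU was listed at 0 in all T0 libraries and at 195, 169 and 183 in the chilled ones. Fitted differences of entries near 0 at T0 depend on the added 1. Of the 41, trnS-GCU (0.89) and trnR-UCU (0.55) were not called, and they lie close together in the plastid gene order. 15 plastid symbols occur more than once, as exons or as copies in the inverted repeat, and how reads were shared among such copies cannot be told from the files.

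Of 8 rRNA entries, which together carry most of the plastid signal, 4 were called higher: LyesC2r003 (3.48), LyesC2r004 (6.28), LyesC2r005 (6.01) and LyesC2r006 (5.22). The entries with the highest values were not among them. LyesC2r001 stood at 132871, 151795 and 139838 at T0 and at 224868, 342592 and 209972 at 4°C, and LyesC2r002 at 205084, 227654 and 259072 and then at 428792, 608034 and 382696. In each gene the chilled libraries were all above T0 with chilled replicate 2 the highest, yet neither difference (0.84 ± 0.37 and 1.01 ± 0.33) was called.

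A few plastid genes did not follow their neighbours. Along the psaA, psaB and rps14 cluster the log2 difference went from 2.04 ± 0.38 for psaA, the only one called, to 0.72 ± 0.44 for psaB and 0.12 ± 0.37 for rps14. The values for rps14 were 540.0, 511 and 443 at T0 and 541, 587 and 491 at 4°C, so its groups overlapped. The adjacent ATP synthase genes atpB (3657, 3003 and 3328 at T0, 3326, 5171 and 3573 at 4°C) and atpE (1145, 855 and 1050.0, then 892, 1195 and 885) overlapped as well, while atpA, elsewhere in the plastid genome, rose from 1977, 1765 and 1969 to 3973, 4975 and 3983. Both copies of rps7, for a protein of the small ribosomal subunit, were the only plastid entries called lower. The copy with more reads went from 5457, 4140.3 and 5303 to 1723, 2895 and 1910.4 (-1.22 ± 0.15, limma adjusted p = 3.02e-05), and the other by -1.30. Beside it in the plastid order, ndhB had differences of 0.00 ± 0.16 and 0.12 ± 0.27 in its copies. With all 6 T0 libraries as the reference or with T0 of batch 1, the rps7 call was lost, whereas psaA kept its call with both. In the fit of the 9 libraries of batch 2 psaA was not called (limma adjusted p = 0.0169), nor with robust moderation (0.0104).

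**Figure D3:**
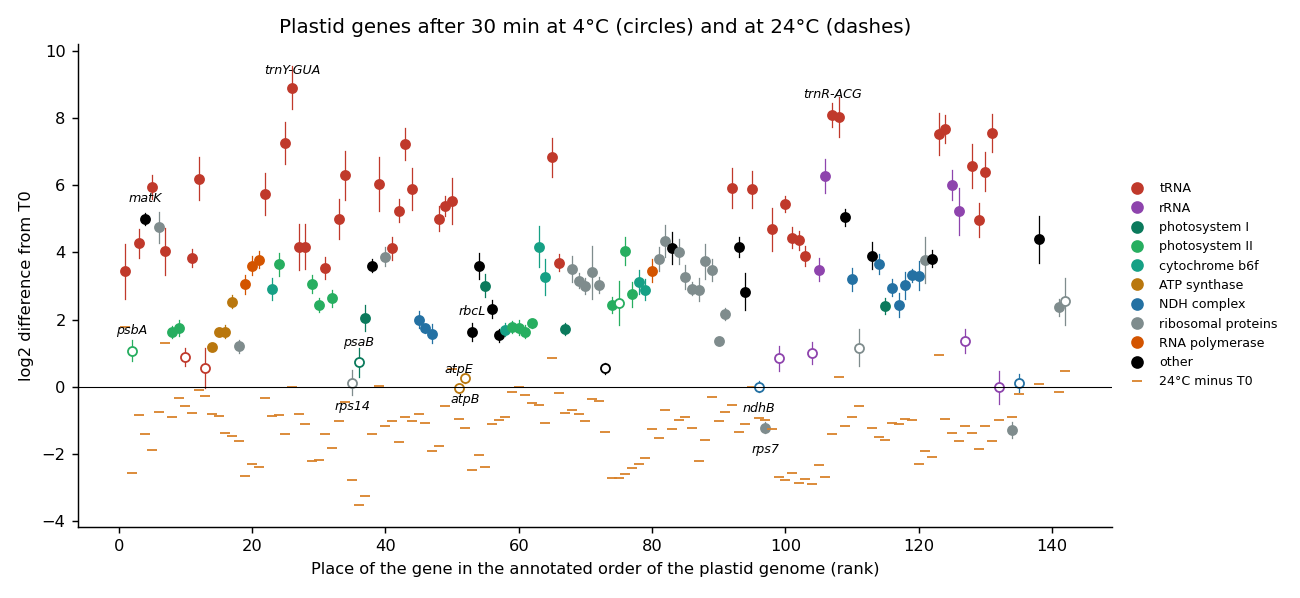
Log2 difference from T0 for the 136 plastid entries in their annotated order (rank) along the plastid genome: circles with SE bars for 30 min at 4°C, filled where called and open where not, coloured by gene group, and orange dashes for 30 min at 24°C. Circles run from -1.30 (rps7) to 8.91 (trnY-GUA), with tRNA entries highest, and 127 of the 136 dashes lie below 0.

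Plastid genes of shoots kept at 24°C differed from T0 of batch 2 in the other direction. Their share at 24°C, 0.222 to 0.643%, overlapped the 0.394 to 0.718% of T0 of batch 1. A test of 24°C against T0 of batch 1 was not run. Of all tested genes, 1743 were called at 24°C (8.49%), 814 of them higher (3.96%) and 929 lower (4.52%), while 0 plastid genes were higher and 66 lower (limma), with 1 higher at an unadjusted p under 0.05. The direct test of 4°C against 24°C, in which T0 cancels, called 127 of 136 plastid genes higher in the cold and 0 lower, also 0 at an unadjusted p under 0.05, with a median of 4.96. In that test 1246 of all 20535 genes (6.07%) were called, 585 of them higher (2.85%) and 661 lower (3.22%). The number of plastid genes called higher against T0 lay between 113 and 131 in the 19 alternatives tried, both other choices of T0 libraries included. The T0 libraries themselves differed, with 71 plastid genes higher and 4 lower in batch 2 than in batch 1. The difference was not limited to plastid genes: 4827 of all 20535 tested genes were called between the T0 sets, 1633 higher and 3194 lower in batch 2.

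Mitochondrial genes encode subunits of the respiratory chain, a few ribosomal proteins and rRNAs. Of 72 annotated, 31 were in the table. Their share was 0.165, 0.125 and 0.143% at T0 and 0.0419, 0.0608 and 0.0231% at 4°C, a factor of 0.290 (exact two-sided permutation test, p = 0.1, the smallest possible). The complex I gene nad4 had 434, 353 and 374 normalized counts at T0 and 90.2, 148 and 93.6 in the cold (-1.83 ± 0.21), and atp1, an ATP synthase subunit, had 257, 247 and 240.1 and then 21.4, 57.2 and 22.97 (-2.98 ± 0.45). All chilled values of both lay far below T0. At 24°C the same genes stood at 105, 148 and 117 and at 10.7, 48.2 and 57.3. In all, 14 mitochondrial genes were lower than T0 at 24°C, and the direct test of 4°C against 24°C called 1 higher and 1 lower: rpl2 was higher by 1.03 ± 0.21 and rps1 lower by 2.18 ± 0.47. The T0 libraries of batch 1 held a mitochondrial share of 0.0243 to 0.0337%, below that of batch 2. Against them the chilled share was higher, by a factor of 1.47 (exact two-sided permutation test, p = 0.4), so the direction of the share depended on the T0 set. With batch 1 as the reference the count of genes called lower was 1. Without chilled replicate 1, chilled replicate 3 or T0 replicate 6 it was 8.

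A set of 25 nuclear genes fell by 3 or more on the log2 scale, in the cold and mostly at 24°C too. None has a name, 9 carry IDs of unplaced sequence (Solyc00g) and 6 lie in one stretch of IDs beginning Solyc06g024. The gene Solyc06g024245 had 20345, 18783 and 21675 at T0, 488, 1842 and 1058 at 4°C, 389.8, 733 and 4019 at 24°C, and 620.5, 2196 and 637 in the T0 libraries of batch 1. Its values at T0 of batch 2 thus stood apart from every other group. Of the 25 genes, 19 were also called lower at 24°C by at least 1 on the log2 scale, 0 were called between 4°C and 24°C (limma), and 19 were higher in T0 of batch 2 than in T0 of batch 1. Of all 20535 tested genes, 929 were called lower at 24°C, 1246 between 4°C and 24°C, and 1633 higher in T0 of batch 2. The genes were picked against T0 of batch 2, and both counts of 19 reuse those libraries, so they are not independent evidence. Together they took 0.592 to 0.749% of T0 libraries of batch 2, 0.0331 to 0.0681% of chilled ones and 0.0421 to 0.161% of T0 libraries of batch 1.

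Nuclear genes with a name were few among the calls: 18 of the 254 higher and 15 of the 1005 lower ones with a group mean of at least 100 had one. The names come from the study's own tables, so they say little of which kinds of genes rose. The named gene with the largest rise was MAPKKK15 (Solyc07g064820), a protein kinase at the head of a MAP kinase cascade, with 99.2, 118 and 139 normalized counts at T0 and 406, 417 and 324 at 4°C (1.68 ± 0.22, limma adjusted p = 4.46e-05). It fell at 24°C, to 43.6, 45.4 and 76.6. The zinc finger gene ZAT10 (Solyc04g077980), a stress-induced transcriptional repressor, went from 1125, 1023 and 937 to 1803, 2153 and 1668 (0.86 ± 0.14, limma adjusted p = 0.000393), and to 296, 330.5 and 253 at 24°C. These genes and the unnamed Solyc04g082990 (49.6, 54.2 and 48.4 at T0, 159.8, 165 and 132 at 4°C, 59.1, 43.3 and 55.8 at 24°C) were the 3 of 34 named or listed nuclear calls that held under all 19 alternatives. The direct test called all 3 higher at 4°C than at 24°C, by 2.81, 2.67 and 1.52.

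Other transcription factors rose by less than 2-fold. LBD37, which represses genes of nitrogen use, had 459, 524 and 537 at T0, 977, 827 and 1057 at 4°C and 238, 318 and 232 at 24°C (0.91 ± 0.18, limma adjusted p = 0.00168). Its call was lost only without T0 replicate 4 and without chilled replicate 1, at an adjusted p of at most 0.0114 in limma. RAP2.5, of the ethylene response factor family, had 2791, 2764 and 3376, then 3933, 4426 and 5094, and 1088 to 1199 at 24°C (0.59 ± 0.13). Without T0 replicates 4 or 5 or chilled replicates 2 or 3 it was not called, with an adjusted p of up to 0.0290. The genes matched to BZIP53, a factor that activates amino acid breakdown when energy is low, were both higher: Solyc01g079480 went from 625, 542 and 557 to 979.8, 929.5 and 1045 and Solyc06g009640 from 292, 279 and 267 to 479, 400.3 and 469. At 24°C the first held 782, 639 and 839 and the second 748, 603 and 673. The direct test of 4°C against 24°C gave 0.39 ± 0.11 for the first (not called, limma adjusted p = 0.019) and -0.58 ± 0.11 for the second (called, 0.00187). With T0 of batch 1 as the reference, Solyc01g079480 changed sign to -0.11, and with all 6 T0 libraries it was not called. WRKY11, a regulator of defence genes, stood at 1575, 1752 and 1775 at T0 and 2092, 2554 and 2370.4 at 4°C (0.46 ± 0.11), a difference that was not called without T0 replicates 4, 5 or 6 or chilled replicates 2 or 3 (adjusted p up to 0.0433) and that was -0.24 against T0 of batch 1.

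Further genes that rose were HHO2, a MYB-related regulator of phosphate and nitrate responses (0.69), BEH4 of the brassinosteroid-regulated BES1 family (0.54), the E3 ubiquitin ligase gene RMA1 (0.64), the papain-like protease gene XBCP3 (0.69), the wound-induced WI12 (0.82), MEE14 (0.95), UPM1, an enzyme of siroheme synthesis (0.53), ERD15 (0.43) and the unnamed Solyc10g008400 (1.79). For UPM1 the values were 736, 704 and 657 at T0, 934, 1154 and 943 at 4°C and 700.3 to 708 at 24°C. The stress-related ERD15 had 6968, 7425 and 6185, then 9566, 8707 and 9329, and 6962 to 8172 at 24°C. MEE14, WI12 and XBCP3 rose as well at 24°C, by 1.44, 1.29 and 1.73. Of these 9 genes, ERD15 and Solyc10g008400 kept the call without any one library, but against T0 of batch 1 they were not called and their differences were 0.0079 and 0.63. HHO2, WI12, RMA1, BEH4 and XBCP3 were not called with either other T0 set, nor MEE14 with batch 1, and BEH4 and XBCP3 changed sign there, to -0.066 and -0.065 against batch 1. UPM1 lost it without T0 replicate 6, MEE14 without chilled replicate 1, RMA1 without T0 replicate 4 or chilled replicate 3, BEH4 without T0 replicate 6 or chilled replicate 1, HHO2 without T0 replicate 5 or chilled replicates 1 or 3, and WI12 without T0 replicates 4 or 6 or chilled replicates 1 or 3. XBCP3 lost it without T0 replicates 4 or 5 or chilled replicates 1 or 3. The highest adjusted p without 1 library was 0.0505, for XBCP3. In the fit of only the 6 libraries compared, none of the 9 genes was called. Only Solyc10g008400 among them was called in the fit of the 9 libraries of batch 2.

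**Figure D4:**
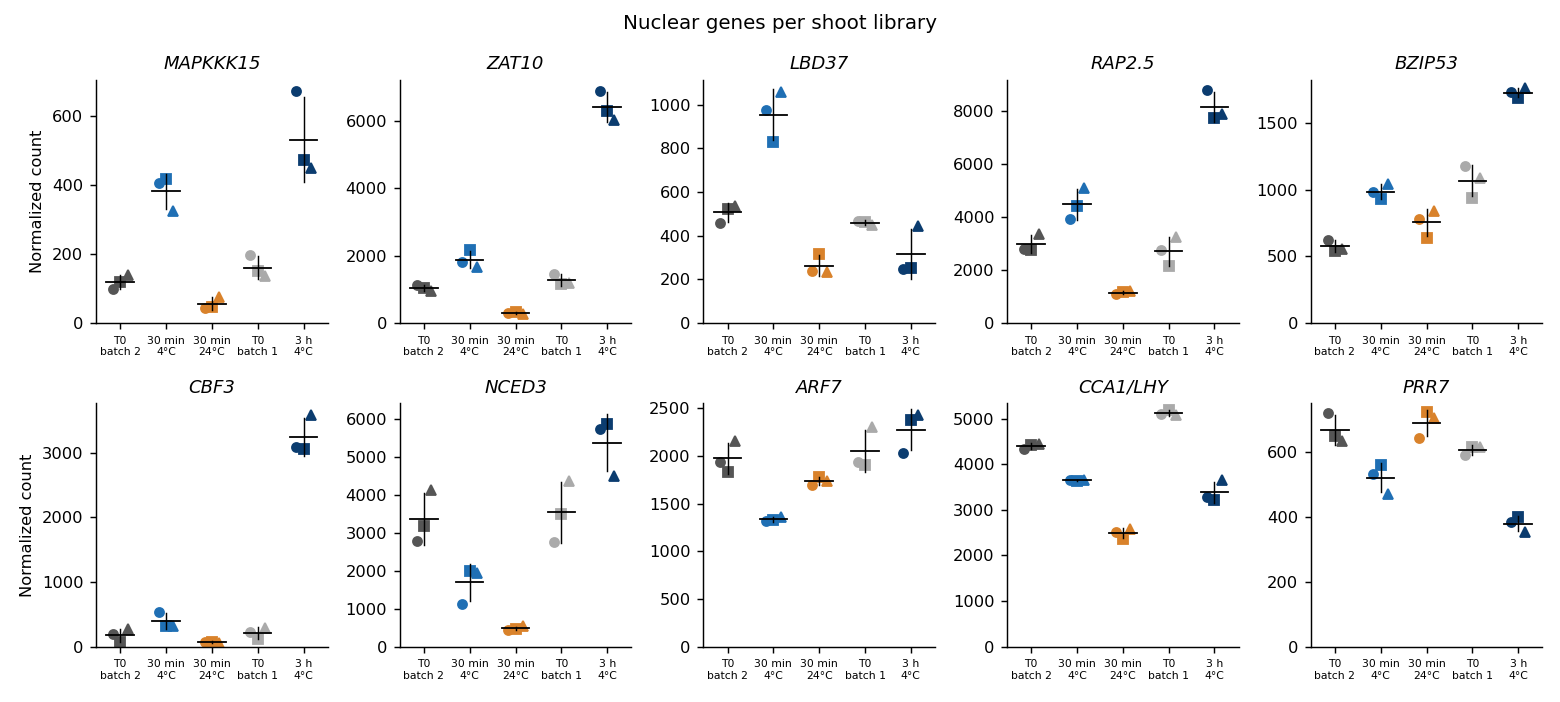
Normalized counts of 10 nuclear genes in each shoot library (symbols are replicates) by group, with the mean (line) and SD (bar, n = 3), on axes that start at 0; BZIP53 is Solyc01g079480. Chilled libraries lie above T0 of batch 2 for MAPKKK15, ZAT10, LBD37, RAP2.5, BZIP53 and CBF3 and below it for NCED3, ARF7, CCA1/LHY and PRR7.

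Among the genes that fell, the auxin response factor gene ARF7 had 1936, 1833 and 2152 normalized counts at T0 and 1313, 1329 and 1356 at 4°C (-0.56 ± 0.09, limma adjusted p = 0.000253). At 24°C it held 1695, 1782 and 1736, and the direct test called chilled shoots lower by 0.38 ± 0.09. The zinc finger homeodomain gene HB34 went from 937, 857 and 999.6 to 679, 625 and 635 (-0.52 ± 0.08) and was at 885 to 970.1 at 24°C. FRS6, a relative of the light-signalling factor FAR1, went from 329.8, 374 and 377 to 260.2, 233 and 203 (-0.64 ± 0.11), and CPR30, an F-box gene that restrains defence, from 392.3, 339 and 456 to 224, 152 and 201 (-1.05 ± 0.17). In all 4 genes the groups did not overlap and the call held without any one library and with both other T0 sets. Over all tested genes, 16.4% had every chilled library below every T0 library. In the fit of only the 6 libraries compared, none of the 4 was called (limma adjusted p from 0.0114 for ARF7 to 0.0439 for FRS6), and FRS6 and CPR30 were not called in that of the 9 libraries of batch 2. The abscisic acid synthesis gene NCED3, which encodes the rate-limiting enzyme, had 2786, 3176 and 4125 at T0, 1126, 2000.0 and 1950.4 at 4°C and 438, 464 and 532 at 24°C. Its difference of -1.02 ± 0.19 was lost as a call without T0 replicate 6 or chilled replicate 1 (adjusted p up to 0.0121), and at 4°C it lay above 24°C by 1.78 ± 0.19.

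The GRAS genes SHR, known from root patterning, and SCL13 were lower by 0.66 ± 0.14 and 0.57 ± 0.13, with SHR at 396, 342 and 484 at T0 and 228, 286 and 256 at 4°C, and SCL13 at 747, 717 and 637 and then 418, 457 and 539. SHR stood at 389 to 424 at 24°C and SCL13 at 255 to 292, so chilled shoots were below 24°C in the first and above it in the second (limma, both called). Also called lower were ZF14 (-1.34), the RING ligase gene RHA2A (-0.50), the phospholipase gene NPC2 (-0.46), the trihelix factor GT2 (-0.45), BLH3 (-0.37) and APR3, an enzyme of sulfate assimilation (-0.43). Each of these 8 genes lost its call without any of at least 4 of the 6 libraries compared, which took in T0 replicate 4 for all 8, with an adjusted p of up to 0.0496, for ZF14. Against T0 of batch 1 all but GT2 were not called, and RHA2A changed sign to 0.18.

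The CBF and DREB1 genes, the central activators of cold-responsive genes, were 0 of 5 called at 30 min by limma, and 1 of 5 passed an unadjusted p under 0.05. Of all 20535 tested genes, 2211 were higher and 3543 lower at that threshold. All 5 had a positive difference, from 0.30 to 1.31. CBF3 had 191, 68.9 and 267 normalized counts at T0 and 537, 322 and 315 at 4°C (1.31 ± 0.49, limma adjusted p = 0.0833), and CBF2 had 152, 34.2 and 91.9 and then 212, 157 and 93.4 (0.89 ± 0.53). The CBF3 groups did not overlap and those of CBF2 did, beside 8.11% of all tested genes with every chilled library above every T0 library. At 24°C all 5 were below T0, by 1.22 to 3.72 on the log2 scale with 3 called, and all 5 were called higher at 4°C than at 24°C, by 2.53 to 4.61. After 3 h at 4°C, in batch 1, CBF3 stood at 3098, 3067 and 3589. The change from T0 of the same batch was not called different between 3 h and 30 min for any of the 5 genes (limma). It was higher at 3 h in 3 of them and lower in 2. Time and sequencing batch cannot be told apart there.

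Lists of transcription factor families held few calls against T0, beside 7.1% of all tested genes called in either direction, 1.93% higher and 5.17% lower. Calls numbered 1 of 54 for other AP2/ERF genes (RAP2.5), 1 of 26 WRKY genes, 0 of 21 NAC genes, 1 of 62 MYB genes (HHO2), 0 of 22 bHLH genes, 2 of 17 bZIP genes (both higher), 0 of 13 heat stress factors, 1 of 6 LOB domain genes, 1 of 22 C2H2 zinc finger genes, 2 of 20 GRAS genes and 2 of 26 homeobox genes (all 4 lower). With so few members, 1 or 2 calls set these shares. At an unadjusted p under 0.05, limma gave 5 of 21 NAC genes higher, 2 of 22 bHLH genes higher and 1 lower, and 2 of 13 heat stress factors higher and 1 lower. Of all 20535 tested genes, 2211 were higher and 3543 lower at that threshold. The list medians ran from -0.12 for GRAS to 0.66 for LOB domain genes and 0.89 for CBF and DREB1, against -0.03 over all genes. Their own values at 24°C were often on the other side of T0 of batch 2. The WRKY median was 0.21 at 4°C and -0.94 at 24°C, with 9 of 26 called lower there. The median for other AP2/ERF genes was 0.24 and -0.35, with 3 called higher and 11 lower at 24°C. WRKY genes were themselves lower in T0 of batch 2 than in T0 of batch 1, with a median of -0.54 and 25 of 26 negative. The summed level of the WRKY list was 13094.5 to 14491 at 4°C, below the 17053 to 17595 in T0 of batch 1. For this list the side at 4°C thus depended on the T0 set. In the direct test 10 of 26 WRKY genes and 18 of 54 other AP2/ERF genes were called higher at 4°C, but the study chose these factor lists on these samples for a difference between the temperatures, so those counts are not independent evidence of it.

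**Figure D5:**
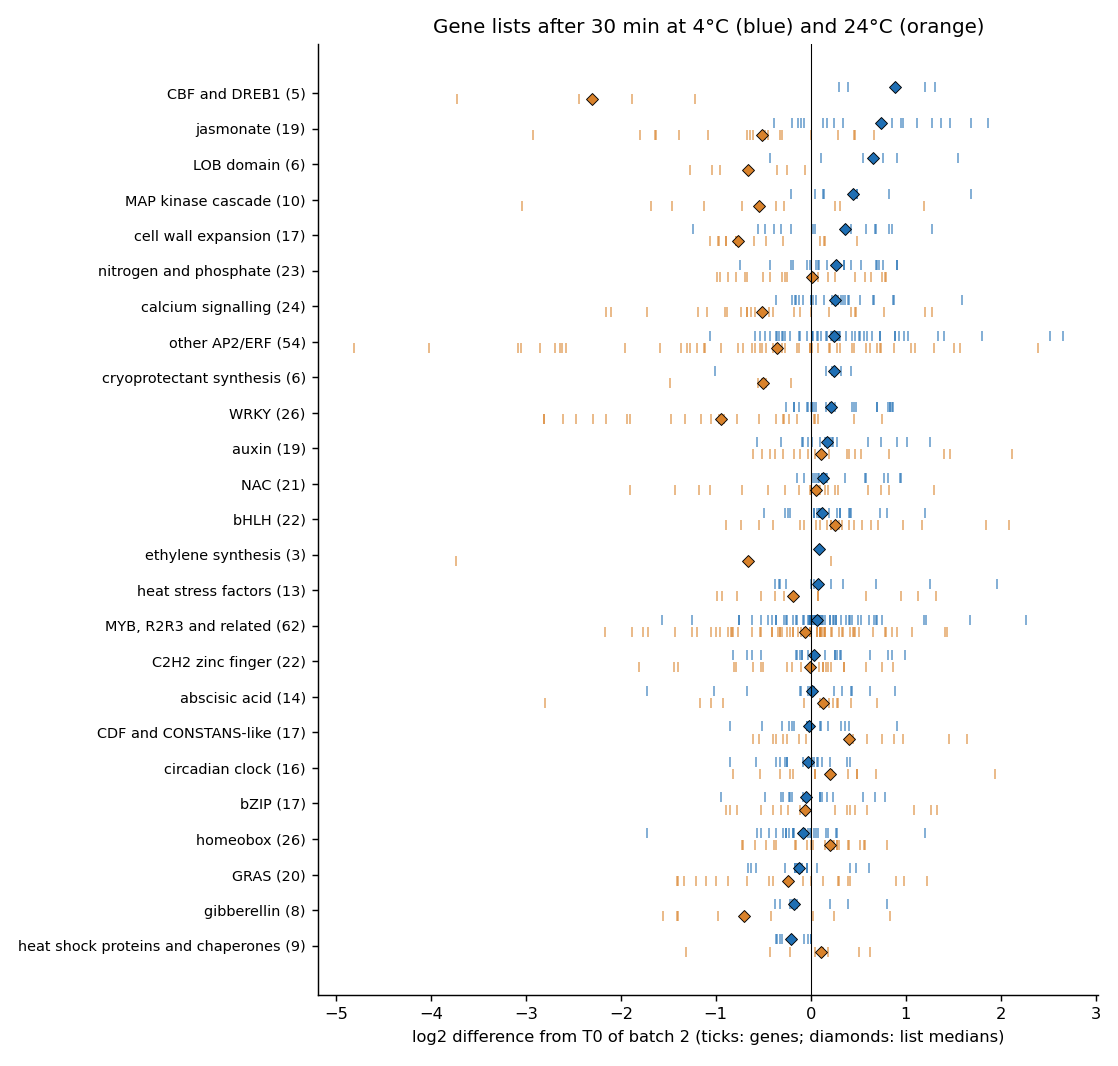
Log2 difference from T0 of batch 2 for the members (ticks) and the median (diamonds) of 25 nuclear gene lists after 30 min at 4°C (blue) and at 24°C (orange), with the number of tested members in parentheses. Blue medians run from -0.21 (heat shock proteins and chaperones) to 0.89 (CBF and DREB1), and orange medians reach -2.30 (CBF and DREB1).

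Calcium signalling genes (0 of 24 called, median 0.26), genes of the MAP kinase cascade (1 of 10, median 0.45) and jasmonate genes (0 of 19, median 0.74) had medians above that of all genes but spread widely between libraries. At an unadjusted p under 0.05, 3 calcium genes and 2 jasmonate genes were higher and 0 lower, beside 2211 higher and 3543 lower of all 20535 tested genes. The summed level of the 19 jasmonate genes was 22545, 23062 and 8074.8 at T0 and 22958, 38579 and 12278 at 4°C. T0 replicate 6 and chilled replicate 3 were thus far below the other libraries of their groups, and at 24°C the sum ran from 8867 to 10679.8. AOS, an enzyme of jasmonate synthesis, had 1108, 1192 and 111 at T0 and 1343, 4645 and 496 in the cold, and MPK3, a stress-activated MAP kinase, had 6089, 5799 and 2056 and then 6562, 7484 and 4069. The summed level of the 24 calcium genes was also lowest in those libraries, at 34621 and 44304 against 65813 to 70533 in the other 4. In the T0 libraries of batch 1 the jasmonate sum was 30322, 29699 and 10597.5, again lowest in the last. What sets these libraries apart was not tested.

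Of 16 circadian clock genes, 2 were lower, beside 5.17% of all genes. CCA1/LHY, a morning clock gene that declines after dawn, had 4332, 4429 and 4432 at T0, 3643, 3631 and 3662 at 4°C and 2522, 2358 and 2582 at 24°C. At 4°C it lay between T0 and 24°C with no overlap, by -0.27 ± 0.06 against T0 (limma adjusted p = 0.00688) and 0.55 ± 0.06 above 24°C. Over all tested genes, 16.4% had every chilled library below every T0 library. PRR7, named here after its values were seen, had 721, 649 and 633 at T0 and 532, 559 and 471 at 4°C (-0.36 ± 0.09), and 644 to 722 at 24°C. Both calls were lost without chilled replicates 1 or 3 or any T0 replicate, and that of CCA1/LHY without chilled replicate 2 as well, with an adjusted p of up to 0.0431. Neither gene was called after rescaling to the median ratio over nuclear genes. Among 6 genes of cryoprotectant synthesis 0 were called by limma and 1 was higher at an unadjusted p under 0.05, with a median of 0.24 at 4°C and -0.51 at 24°C: SAMDC2, for polyamine synthesis, had 2366, 2253 and 1877 at T0, 2550.0, 2932 and 2291 at 4°C and 1498 to 1582 at 24°C. GolS2 and RS, for galactinol and raffinose synthesis, differed by 0.43 ± 0.28 and 0.32 ± 0.44, and TPS7, HAD and ADC2 by 0.22, 0.16 and -1.01. Other lists had no call or few. With no call by limma, the genes at an unadjusted p under 0.05 were 4 higher and 3 lower of 17 for cell wall expansion, 4 higher and 3 lower of 17 for CDF and CONSTANS-like genes, 1 lower of 9 for heat shock proteins and chaperones, and none of 8 for gibberellin and of 3 for ethylene synthesis. That threshold was passed by 2211 higher and 3543 lower genes of all 20535 tested. Beyond these, 3 of 23 nitrogen and phosphate genes were higher (LBD37, UPM1 and HHO2), beside 1.93% of all genes, 1 of 19 auxin genes was lower (ARF7), beside 5.17%, and of 14 abscisic acid genes ERD15 was higher and NCED3 lower.

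After 3 h at 4°C the change from T0 differed from that at 30 min for 1333 of 20535 genes (6.49%), each time against T0 of the same batch: 469 had a higher change at 3 h (2.28%) and 864 a lower one (4.21%). Of the plastid genes, 58 of 136 had a higher change at 3 h and 1 a lower one. ZAT10 reached 6895, 6297 and 6039 normalized counts after 3 h, against 1465, 1145 and 1189 at T0 of batch 1. RMA1, higher than T0 at 30 min, was at 155, 199 and 219 after 3 h and at 371, 406 and 422 at T0 of that batch. Its direction was thus opposite at the 2 times, and the difference of the changes was -1.72 ± 0.19 (limma adjusted p = 1.95e-05). Time and sequencing batch cannot be told apart in this comparison.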

How the data were processed

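Per the study's methods, reads were mapped with BBMap against tomato ITAG 3.2 together with its organelle genomes, and gene counts came from featureCounts of Subread. The authors scaled them by TMM in edgeR and deposited them as signal values, which are not whole numbers. Tool versions are not given here. The library totals were equalised, so the values do not show the depth of each library, and no count test was run. The study's methods give a range of depth across its sequencing batches, which was not used here. The batch of each library comes from the study's methods. All 18 shoot libraries were fitted in 6 groups in R 4.3.3 by limma 3.58.1, on log2 of the value plus 1, with a variance trend; fold changes are on that scale and understate changes of low genes. All 18 shoot columns were mapped and 0 were left out. The fit was tested on simulated data. Named genes were the 12 highest and 12 lowest called nuclear genes that have a name and a group mean of at least 100, 2 unnamed ones in each direction, genes named in the study's text, and up to 6 members of each list (4 of each organelle group) with the highest mean. The libraries, lists and rules were chosen with earlier results of these data known. Names for 859 nuclear IDs come from the study's tables, and organelle symbols from RefSeq. The study had chosen the transcription factors on these samples. The alternatives changed the pseudocount, filter, scaling, libraries fitted, T0 reference, moderation and threshold, and left out each library. Sequences were not used here.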

Additional observations from a re-analysis of the deposited data

Results flagged for a closer look

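The change from T0 at 4°C was set against that after 3 h, each time with the T0 libraries of its own batch, so that the comparisons share no library. The T0 libraries of the batches deviated alike in order (correlations of 0.27, 0.22 and 0.47), so they may not be independent samples, which was not tested. The difference of the changes was tested in the same limma fit, and 1333 of 20535 genes (6.49%) differed. Among the genes named, the change was higher at 3 h than at 30 min by 1.96 on the log2 scale for HAD, 1.64 for NCED3, 1.48 for ZAT10, 1.40 for SCL13, 1.11 for RHA2A, 1.02 for RAP2.5, 0.98 for SAMDC2, 0.83 for TPS7 and 0.72 for ARF7. It was lower at 3 h by -1.51 for LBD37 and -1.72 for RMA1. NCED3, SCL13, RHA2A and ARF7 were below T0 at 30 min, and LBD37 and RMA1 above it. LBD37 stood at 827 to 1057 normalized counts after 30 min and at 248, 250.3 and 446 after 3 h. Time and sequencing batch changed together in this test and cannot be told apart.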

How the results depend on the processing

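The count of plastid genes called higher stayed between 113 and 131 under the 19 alternatives. The total of 1457 (396 higher, 1061 lower, 13 mitochondrial genes lower) became 240 (135, 105, 7) when the fit held just the 6 libraries compared, 486 (160, 326, 8) with the 9 of batch 2, 3032 (971, 2061, 23) at an adjusted p under 0.05, 4389 (1115, 3274, 1) with T0 of batch 1 and 781 (211, 570, 1) with all 6 T0 libraries. The fits of 6 and 9 libraries have fewer samples for the spread; other causes were not tested. Rescaling gave 611 higher over nuclear genes and 605 over all genes, and a filter of 50 gave 8 mitochondrial genes. Leaving out each library gave 802 to 1746 in total, 214 to 735 higher, 580 to 1092 lower, 115 to 117 plastid and 8 to 16 mitochondrial. With T0 of batch 1 the sign changed for 29 of the 117 genes followed, 11 of them (9 mitochondrial) called with neither T0 set; the others were XBCP3 (-0.065), BEH4 (-0.066), RHA2A (0.18), Solyc06g024245 (0.044), WRKY11 (-0.24), BZIP53 (-0.11), SAMDC2 (-0.43), atpB (-1.25), LyesC2r008 (5.53) and the mitochondrial atp9 (0.64), atp8 (0.47), cox1 (0.37), sdh4 (2.31), rps3 (0.92), rps10 (0.44), rrn18 (4.19 and 0.64) and rrn26 (0.066). No paired analysis was possible for 4°C against T0 because T0 replicates 4 to 6 and chilled replicates 1 to 3 share no number in the labels. Their deviations from the group means correlated at 0.029 for chilled replicate 1 and T0 replicate 4, 0.091 for 2 and 5 and 0.31 for 3 and 6. Other pairs of chilled and T0 libraries ran from -0.24 to 0.16. A link between such libraries was not tested. For 4°C against 24°C, the replicate block gave 1428 called genes and the same 12 libraries without it, an alternative chosen after seeing the data, 1390, against 1246 in the fit of all 18. Same-numbered libraries at 30 min correlated at 0.00458, 0.125 and 0.0197, and pairs with unlike numbers at -0.130 to 0.122. These values cannot show whether same-numbered libraries share more than a number.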

Other observations

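A set of 3 unnamed nuclear genes was picked for being nearly absent in T0 of batch 2 and after 30 min at 24°C but present after 30 min at 4°C. Each stood at 2.56 normalized counts or less in every T0 library of batch 2 and every library at 24°C for 30 min, and at 45.2 to 107 in the libraries after 30 min at 4°C. After 3 h at 4°C they ranged from 7.80 to 281, and in the T0 libraries of batch 1 they reached at most 7.38. They were chosen after their values were seen, with a ceiling of 10 outside the cold and a floor of 40 at 4°C. The contrast is therefore the rule of choice and no evidence of a cold effect. No shoot library outside the cold reached the 10 normalized counts of the filter, so they were tested only through chilled libraries.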
